A study of Homo sapiens with 4 samples.

Results

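RNase H and oligonucleotide-binding proteins were followed in HCT116 cells, an established human colorectal cancer line, after transfection of antisense oligonucleotides (ASOs). The 8 genes, chosen by name, are the 8 of 63677 counted genes whose Ensembl identifiers map to RNASEH1, RNASEH2A, RNASEH2B, RNASEH2C, NONO, SFPQ, PSPC1 and XRN1. The 4 RNA-seq libraries were 2 of cells given the anti-GAA ASO and 2 of cells given the control ASO, with replicates numbered 1 and 2 in each group and a transfection of 48 h per the labels, where the study's methods give a shorter time for ASOs in general. All 4 libraries thus come from cells that received an ASO, in 1 cell line, and no untransfected library was analysed here. The labels do not say that the replicates were separate cultures, so that p-values measure the spread between these libraries.

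An ASO of the gapmer type pairs with its target RNA, and RNase H, which recognises the hybrid of DNA and RNA, cuts the RNA strand. In human cells RNase H1 is the form chiefly credited with this cut, while RNase H2, a complex of a catalytic subunit A with subunits B and C, also removes single ribonucleotides from DNA. The cut leaves an RNA piece with a free 5′ end that the cytoplasmic exonuclease XRN1 can degrade. NONO, SFPQ and PSPC1 are the related RNA-binding proteins of paraspeckles, nuclear bodies built on a long noncoding RNA, and belong to the proteins known to bind ASOs with phosphorothioate linkages.

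The anti-GAA ASO is shown because its build sets which enzyme it calls on. It holds 21 nt, of which the 9 in capitals are deoxynucleotides and the 6 at each end, in lower case, carry the 2′-O-methoxyethyl group that RNase H does not accept. The sequence of the control ASO is not given in the sources used here.
anti-GAA ASO: ttcttcTTCTTCTTCttcttc
Its target is a run of GAA repeats on the RNA, and the 8 genes were searched for such runs in the longest GENCODE 44 transcript of each (GRCh38). None of the 8 held a perfect GAA run of 12 nt or more, in any frame, which 2.54% of the 14751 tested genes with a transcript sequence did. Their longest runs were 9 nt in XRN1, 8 nt in RNASEH2C, NONO, SFPQ and PSPC1, 7 nt in RNASEH1 and RNASEH2B, and 6 nt in RNASEH2A. A run of at least 9 nt was present in 20.1% of all tested genes, and one of at least 8 nt in 43.3%. The stretch closest to the full target is given for the gene with the best match (XRN1), for RNase H1 itself, and for RNASEH2A and PSPC1, which had the fewest matches, with bases equal to the 21-nt GAA repeat in capitals and all others in lower case.
XRN1: GAAGAAaAgGAAtAAtAAtAA
RNASEH1: GAAaAtcAAcAtGgAcAAGAA
RNASEH2A: GAgaAAGAgGcgGAAGAtGtt
PSPC1: GccagAGAAGctGAtGcAGAA
The XRN1 stretch lies at chr3:142384657-142384677 (minus strand) in coding exon 21 and matches 16 of 21 bases, a number that 17.4% of tested genes reached or passed. That of RNASEH1, at chr2:3552283-3552303 (minus strand) in coding exon 3, matches 14, a number that 68.4% of tested genes reached or passed. In RNASEH2A the stretch is at chr19:12813181-12813201 (plus strand), in exon 5 of a transcript with no annotated coding sequence, and matches 13. The PSPC1 stretch, at chr13:19759341-19759361 (minus strand) in coding exon 3, also matches 13. The remaining genes matched 14 bases (RNASEH2C) or 15 bases (RNASEH2B, NONO and SFPQ). The 8 genes thus lay within the usual range of resemblance to the ASO target.

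A total of 10538284 reads were counted on genes in anti-GAA library 1, 17894953 in anti-GAA library 2, 15347298 in control library 1 and 15924742 in control library 2, so that anti-GAA library 1 was the shallowest. The 8 genes together took between 0.0837% and 0.0867% of the counts. Levels are given as CPM, in which counts are divided by the library total and scaled by TMM, a factor that evens out differences in composition. In a principal component analysis of log2 CPM the first component (52.7% of the variance) separated replicates 1 from replicates 2 and the second (33.1%) the ASOs, and changes are therefore also given by pair, between libraries of the same number. The epithelial markers EPCAM (628 to 739 CPM), KRT8, KRT18, KRT19 and CDH1 were present in all libraries, while the intestinal markers VIL1, CDX1 and CEACAM5 had at most 2 counts. Of 10 markers of other cell types, COL1A1 was at 10.1 to 14.5 CPM and DES at 1.41 to 5.30 CPM, CD3E, PECAM1, LYZ and COL1A2 had no count, and the others had at most 5 counts in a library.

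At baseline, in cells given the control ASO, all 8 genes were expressed and passed the filter on low counts, and their levels spanned a wide range. Per length, as CPM per kb of the union of annotated exons, SFPQ was highest at 55.4 ± 4.64 (SD, n = 2), followed by RNASEH2A, the catalytic subunit of RNase H2, at 39.4 ± 5.49 (SD, n = 2) and RNASEH2C at 12 ± 1.15 (SD, n = 2). RNASEH1 was at 7.22 ± 1.35 (SD, n = 2), PSPC1 at 6.23 in both control libraries, NONO at 6.20 ± 0.699 (SD, n = 2) and RNASEH2B at 3.74 ± 0.615 (SD, n = 2). XRN1 was lowest, at 1.01 ± 0.110 (SD, n = 2).

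**Figure D1:**
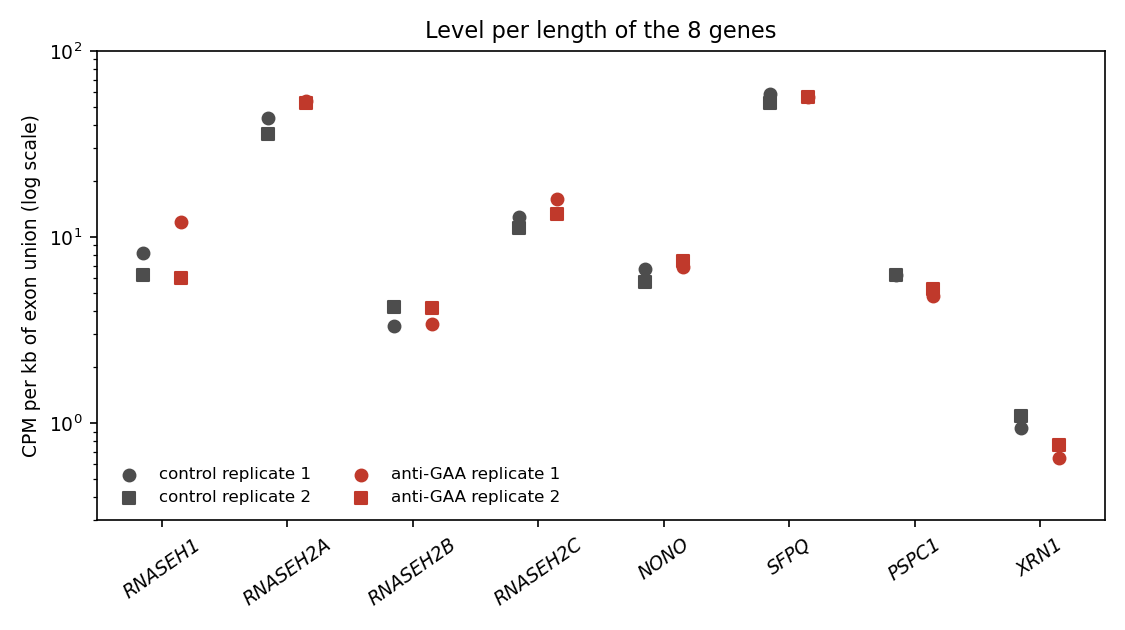
CPM per kb of exon union on a log axis for the 8 genes, with circles for replicate 1 and squares for replicate 2, grey for the control ASO and red for the anti-GAA ASO. SFPQ and RNASEH2A stand at the top and XRN1 at the bottom in all 4 libraries.

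The order SFPQ, RNASEH2A, RNASEH2C at the top and XRN1 at the bottom held in each of the 4 libraries, and also when the length of the longest transcript replaced the exon union. Between these, the order of RNASEH1, NONO and PSPC1 depended on the library and on the length used. Per exon union, the libraries of RNASEH1 and NONO overlapped within each group, and those of NONO and PSPC1 overlapped with the control ASO. With the anti-GAA ASO, NONO (6.90 and 7.45 CPM per kb) stood above PSPC1 (4.80 and 5.24) without overlap. RNASEH1 was above PSPC1 in all 4 libraries, by as little as 6.27 against 6.23 in control library 2. Per longest transcript, RNASEH1 was instead below NONO in all 4 libraries, and in the control libraries (9.20 and 7.04) also below PSPC1 (12.3 in both). RNASEH2B stood seventh in all 4 libraries per exon union, a length of 26222 nt for this gene against 7282 nt for its longest transcript. With the latter its control level was 13.5 CPM per kb, above RNASEH1 at 8.12, so that its place depends on the length used. Not divided by length, its mean control level was 98.1 CPM, against 81.0 CPM for RNASEH2A. The longest transcripts of RNASEH2A, RNASEH2B and NONO have no annotated coding sequence, so neither length need be that of the mRNA. The lengths come from GENCODE 44 on GRCh38, whereas the authors counted on an hg19 annotation. RNASEH1 was thus measured at a level well under RNASEH2A, with RNASEH2A over RNASEH1 per exon length at 5.29 and 5.67 in the control libraries and 4.46 and 8.76 in the anti-GAA libraries. Among the paraspeckle genes, SFPQ per exon union was 8.76 and 9.13 times NONO in the control libraries. With the anti-GAA ASO it was 8.15 and 7.56 times NONO. Per longest transcript the ratios were 7.30 and 7.61 in the control and 6.79 and 6.30 in the anti-GAA libraries. NONO overlaps ZMYM3 on the opposite strand, and whether reads of NONO were lost in counting was not tested.

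In the comparison of the anti-GAA with the control ASO, none of the 8 genes reached the threshold of edgeR's quasi-likelihood test, an adjusted p of 0.05 by Benjamini-Hochberg over 15116 tested genes, and none had an unadjusted p under 0.05. DESeq2 called 0 of the 8 as well, with 0 at an unadjusted p under 0.05 and a smallest p among the 8 of 0.0957. The background is low in this fit: edgeR called 0.0% of all tested genes lower and 0.0% higher at the adjusted threshold, while 3.46% were lower and 1.02% higher by unadjusted p under 0.05. Of 28017 genes with a p in DESeq2, 0.0107% were called lower and 0.0% higher, and 1.25% were lower and 0.382% higher by unadjusted p under 0.05. When the replicate number was added as a block, edgeR again called 0 of the 8, while 1.37% of all genes were called lower and 0.337% higher. RNASEH2A and XRN1 then had an unadjusted p under 0.05, as did 6.86% of all genes in the direction of RNASEH2A and 9.7% in that of XRN1. An exact permutation test of 2 against 2 libraries cannot go below p = 0.333. Log2 fold changes (anti-GAA over control) ran from −0.52 for XRN1 to 0.43 for RNASEH2A, with a median of 0.12 against 0.013 for all tested genes. Libraries of the groups did not overlap for 5 of the 8, lower with the anti-GAA ASO for XRN1 and PSPC1 and higher for RNASEH2A, RNASEH2C and NONO, where 16.9% and 15.5% of all tested genes were lower or higher without overlap. In bulk RNA, a change in every cell and a change in the share of cells that express a gene cannot be told apart.

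**Figure D2:**
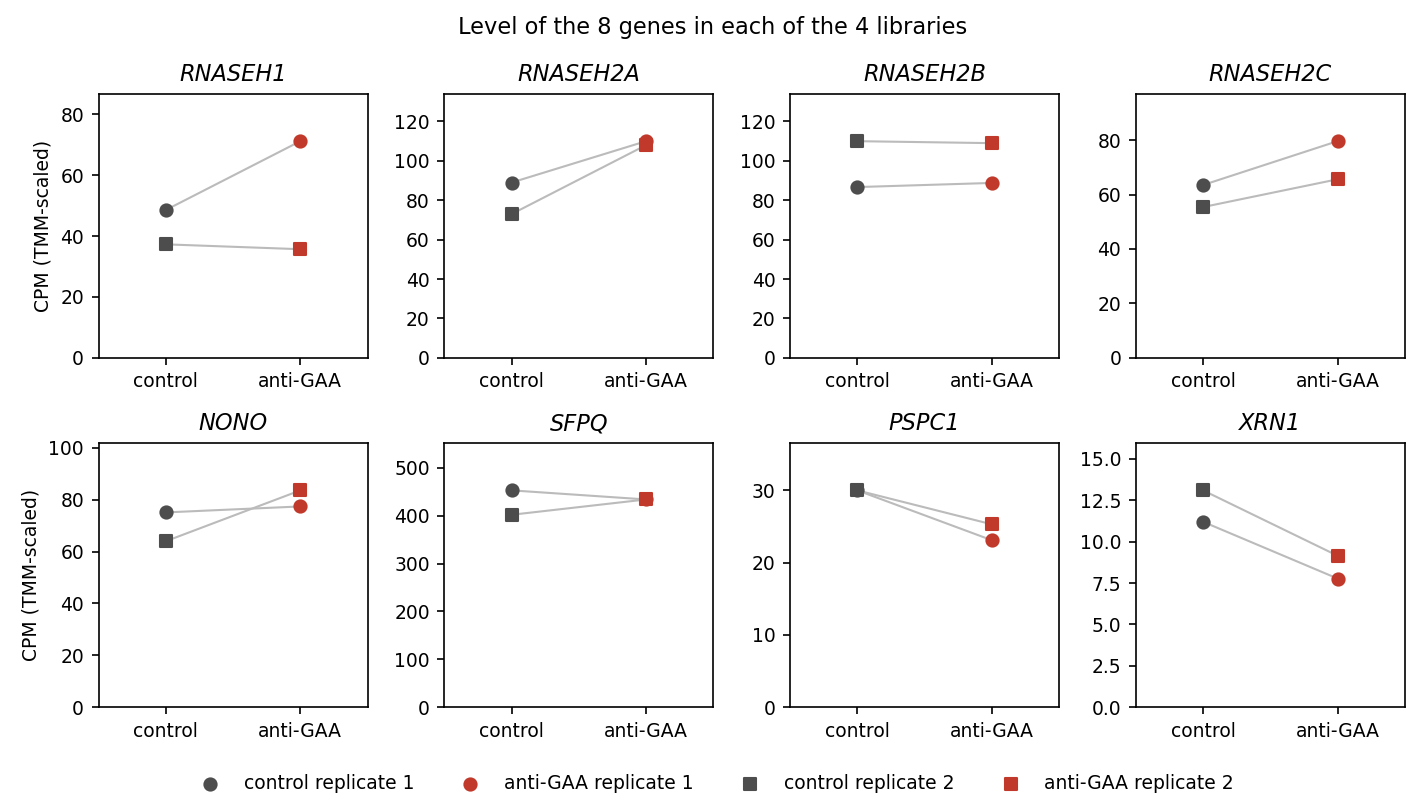
CPM (linear axis from 0) of each of the 8 genes in the 4 libraries, circles for replicate 1 and squares for replicate 2, with a grey line joining libraries of the same number. XRN1 and PSPC1 are lower and RNASEH2A and RNASEH2C higher with the anti-GAA ASO in both pairs, none of them past the test, and RNASEH1 is set apart by replicate 1 of the anti-GAA ASO at 71.2 CPM.

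RNASEH1 (ENSG00000171865, chromosome 2, 3541430–3558333 on GRCh38) encodes the enzyme that cuts RNA paired with a gapmer, in the nucleus and in mitochondria. It was at 48.6 and 37.3 CPM in control libraries 1 and 2 and at 71.2 and 35.7 CPM in anti-GAA libraries 1 and 2. Only replicate 1 of the anti-GAA ASO was high, and the groups overlapped. The change was 0.55 between the libraries numbered 1 and −0.06 between those numbered 2 on the log2 scale. Over all libraries the log2 fold change was 0.31 (standard error, SE, of 0.35, edgeR adjusted p = 0.996), with a 95% interval from −0.51 to 1.13. It was −0.26 if anti-GAA library 1 was left out and 0.73 if anti-GAA library 2 was, so that the direction rested on 1 library. The RNASEH1 count in that library was 706 (exact Poisson 95% interval 655.0 to 760.0, counting error only), against 747 in the deeper control library of the same number. Its processed pseudogenes RNASEH1P1 and RNASEH1P2, counted as genes of their own, had 0.110% and 1.87% as many counts.

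Of the subunits of RNase H2, RNASEH2A (ENSG00000104889, chromosome 19, 12806584–12813640), which holds the active site, was at 89.0 and 73.0 CPM in control libraries 1 and 2 and at 110.0 and 108.0 CPM with the anti-GAA ASO. Both anti-GAA libraries were above both control libraries, and they differed from each other less than the control libraries did. The change was 0.30 and 0.57 in the pairs, with a log2 fold change of 0.43 (SE 0.20, edgeR adjusted p = 0.996) and a 95% interval from −0.05 to 0.91. RNASEH2A had the smallest p of the 8 genes, and 92.2% of all tested genes had a lower log2 fold change. It overlaps HOOK2 on the opposite strand, which had 27.2% as many counts and a log2 fold change of 0.15. The strand setting of the counting is not given, and whether reads of the shared part affected the RNASEH2A values was not tested.

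RNASEH2C (ENSG00000172922, chromosome 11, 65714005–65720818), a subunit that does not hold the active site, was at 63.5 and 55.4 CPM with the control ASO and at 79.6 and 65.6 CPM with the anti-GAA ASO. The groups did not overlap, but the lower anti-GAA library lay only just above the higher control library. Its log2 fold change was 0.29 (SE 0.21, edgeR adjusted p = 0.996), with 0.32 and 0.24 in the pairs. It was 0.15 if anti-GAA library 1 was left out. The annotation places KAT5, a histone acetyltransferase gene, partly over RNASEH2C on the opposite strand, and KAT5 held 2 to 6 counts in a library. Whether reads of either gene were lost or counted to the other was not tested.

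RNASEH2B (ENSG00000136104, chromosome 13, 50909747–51024120), the subunit through which the complex binds the replication clamp PCNA, was at 86.7 and 110.0 CPM with the control ASO and at 88.8 and 109.0 CPM with the anti-GAA ASO. Its libraries differed by replicate number and not by ASO, with changes of 0.03 and −0.01 in the pairs. The log2 fold change was 0.01 (SE 0.22, edgeR adjusted p = 0.996), and its 95% interval, from −0.51 to 0.53, leaves room for a change of either sign. The ratio of RNASEH2A to RNASEH2B per exon length was 13.1 and 8.50 in the control libraries and 15.8 and 12.7 in the anti-GAA libraries. Per longest transcript it was 6.0 and 3.9 in the control libraries and 7.24 and 5.82 in the anti-GAA libraries, since the exon union of RNASEH2B is so much longer than its longest transcript. Ratios of RNASEH2A to RNASEH2C per exon length were closer together, at 3.39 and 3.19 in the control and 3.34 and 3.99 in the anti-GAA libraries.

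**Figure D3:**
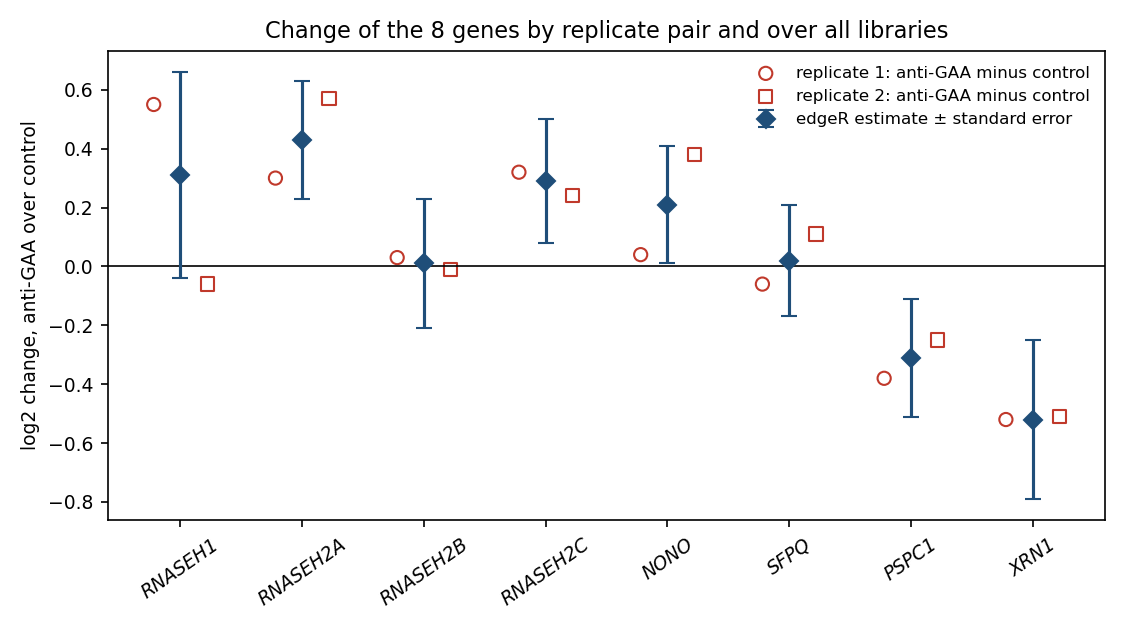
Log2 change, anti-GAA over control, of the 8 genes: open circles and squares are the differences in log2 CPM of the libraries numbered 1 and of those numbered 2, and diamonds the edgeR estimate over all 4 libraries with its standard error as the bar. The pairs lie close together for XRN1 (−0.52 and −0.51) and far apart for RNASEH1 (0.55 and −0.06). XRN1 rests on 77 to 222 counts a library, so the small gap between its pairs does not measure its error.

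Of the paraspeckle proteins, SFPQ (ENSG00000116560, chromosome 1, 35176378–35193446), a splicing and transcription factor, was the most abundant of the 8 RNAs. It was at 453.0 and 402.0 CPM with the control ASO and at 434.0 CPM in both libraries with the anti-GAA ASO. Both anti-GAA libraries lay between the control libraries. The log2 fold change was 0.02 (SE 0.19, edgeR adjusted p = 0.996; 95% interval from −0.42 to 0.47), and the pairs gave −0.06 and 0.11.

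NONO (ENSG00000147140, chromosome X, 71254814–71301522), which pairs with SFPQ and PSPC1 to form dimers, was at 75.1 and 64.0 CPM with the control ASO and at 77.4 and 83.6 CPM with the anti-GAA ASO. The groups did not overlap, though replicates 1 differed by only 0.04 on the log2 scale, against 0.38 for replicates 2. Its log2 fold change was 0.21 (SE 0.20, edgeR adjusted p = 0.996; 95% interval from −0.26 to 0.68), and 0.11 without replicate 2 of the control ASO. ZMYM3, which overlaps NONO on the opposite strand, had 48.2% as many counts and a log2 fold change of 0.22, and reads of the overlapped part cannot be told apart where strand was not used in counting. The pseudogene NONOP2, counted separately, had 0.178% as many counts as NONO.

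PSPC1 (ENSG00000121390, chromosome 13, 19674752–19783019), the third protein of this family, was at 30.0 CPM in both control libraries and at 23.1 and 25.3 CPM in anti-GAA libraries 1 and 2. Both anti-GAA libraries were below both control libraries. The changes in the pairs were −0.38 and −0.25 and the log2 fold change was −0.31 (SE 0.20, edgeR adjusted p = 0.996), with a 95% interval from −0.79 to 0.17. The ratio of NONO to PSPC1 per exon length was 1.07 and 0.916 in the control libraries and 1.44 and 1.42 in the anti-GAA libraries, without overlap. This ratio was chosen after the values had been seen and was not tested.

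XRN1 (ENSG00000114127, chromosome 3, 142306607–142448062), the 5′ to 3′ exonuclease of the cytoplasm, was the rarest of the 8 RNAs and had the lowest log2 fold change. It was at 11.2 and 13.1 CPM with the control ASO and at 7.77 and 9.15 CPM with the anti-GAA ASO, without overlap. The counts behind these values were 172 and 222 with the control ASO and 77 and 163 with the anti-GAA ASO, where 77 counts carry an exact Poisson 95% interval from 60.8 to 96.2. The change was −0.52 and −0.51 in the pairs, a spread of 0.01 (SD, n = 2 pairs), and the log2 fold change −0.52 (SE 0.27, edgeR adjusted p = 0.996; 95% interval from −1.15 to 0.11). A lower log2 fold change was found for 10.3% of all tested genes. XRN1, with a longest transcript of 10143 nt, was at −0.34 after the trend of each library on transcript length and GC content had been removed. No gene with counts overlaps it in the annotation.

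**Figure D4:**
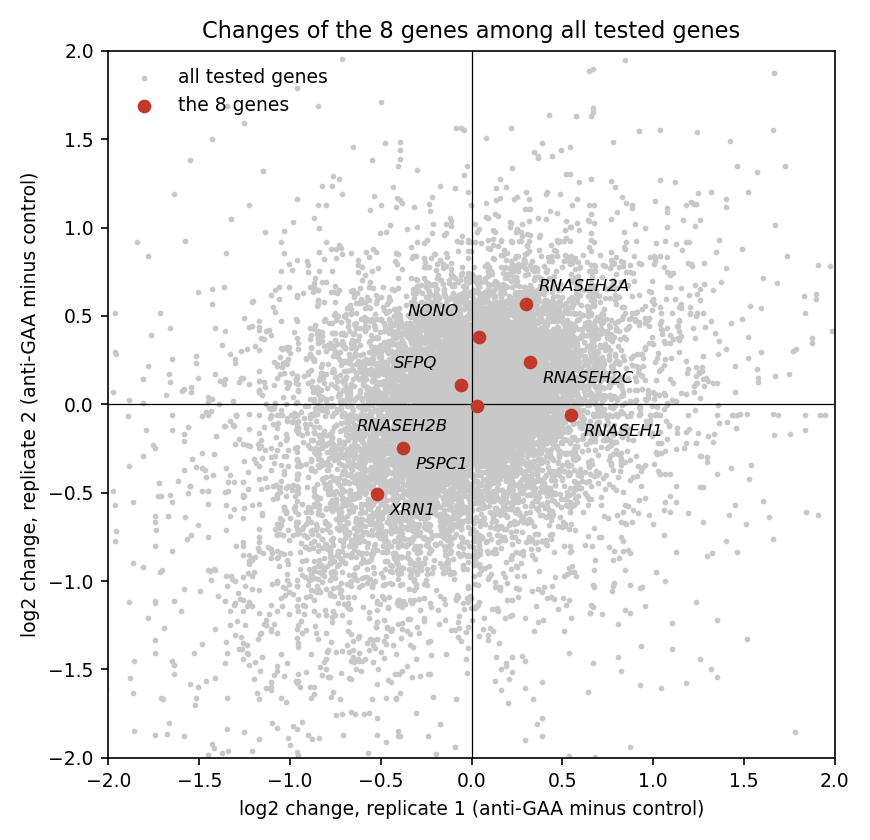
Log2 change in the pair of replicates 1 (horizontal) against that in the pair of replicates 2 (vertical) for all 15116 tested genes in grey, of which 166 lie outside the axes, and the 8 genes in red. The 8 lie within the cloud of all genes, XRN1 and PSPC1 in the lower left and RNASEH2A, RNASEH2C and NONO in the upper right.

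Among all tested genes 30.0% were lower in both pairs and 31.8% higher in both, and of the 8 genes 2 were lower and 3 higher in both pairs. The genes whose profile over the 4 libraries lay closest to RNASEH1 were BRMS1, ACD and MLXIP, at Euclidean distances of 0.0905, 0.0986 and 0.112 in log2 CPM centred on each gene, and all had their highest level in replicate 1 of the anti-GAA ASO. For NONO they were SNHG3, HAPSTR1 and NUDT21, at 0.0402, 0.0408 and 0.0429. NUDT21, a subunit of a cleavage factor for pre-mRNA ends and a paraspeckle component, was at 141.0 and 158.0 CPM in anti-GAA libraries 1 and 2 and at 137.0 and 118.0 CPM with the control ASO. For XRN1 they were TTLL5, CEP57L1 and LINC00511, at 0.0190, 0.0388 and 0.0460. Each was drawn from the genes within 1 log2 unit in mean level (4089, 3417 and 3755 candidates), and profiles over 4 libraries hold little information.

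Other genes of these pathways were read from 5 lists, by their counts and medians, and DESeq2 called 0 genes of any of them. The hybrid list held 18 genes placed under the processing of RNA-DNA hybrids and of ribonucleotides, with the replication clamp PCNA among them. Of these, 17 were tested and 0 passed the adjusted threshold of edgeR. Their median log2 fold change was −0.086 against 0.013 for all tested genes. The sign of this median depended on the processing, at 0.026 (all genes 0.053) after the trends on transcript length and GC content had been removed and −0.18 (all genes −0.081) with library totals alone. At an unadjusted p under 0.05, 1 was lower and 0 higher. When the replicate number was added as a block, edgeR called 1 gene of this list lower and 0 higher. BLM, a DNA helicase, was at −0.48 and XRN2, the nuclear counterpart of XRN1, at 0.28, each without overlap of the groups. XRN2 was at 220.0 and 243.0 CPM with the control ASO and 263.0 and 299.0 CPM with the anti-GAA ASO. The most abundant per length were PCNA, at 0.15, and DDX5, at 0.17, whose groups overlapped.

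Of 17 other paraspeckle components, 16 were tested and 0 passed in edgeR, with a median of 0.14. This median was 0.047 with library totals alone and ran from 0.028 to 0.23 when 1 library was left out. By unadjusted p under 0.05, 1 gene was higher and 0 lower. The 1 was RBM14, a coactivator needed for paraspeckle assembly, at 50.5 and 46.3 CPM with the control ASO and 74.2 and 68.1 CPM with the anti-GAA ASO (log2 fold change 0.55 in both pairs, edgeR adjusted p = 0.996). HNRNPUL1, an RNA-binding protein, was at 0.42 and MATR3, a protein of the nuclear matrix, at −0.39, each without overlap. The abundant HNRNPK was at 0.093. TAF15 had no count under its identifier in the annotation used here and RTEL1, on the previous list, had 1 count in all, so neither was tested.

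Of 26 other proteins known to bind ASOs, among them nucleolin, nucleophosmin, the La protein, Ku and the chaperonin subunits, all were tested, 0 passed in edgeR and 0 had an unadjusted p under 0.05. Their median was 0.042, but −0.062 without replicate 2 of the control ASO, and their log2 fold changes ran from −0.43 to 0.29. The lowest was HSP90AA1, a chaperone with 19 nt of GAA repeat in its longest transcript. It was at 5250 and 4950 CPM with the control ASO and at 5330 and 2250 CPM in anti-GAA libraries 1 and 2, where only replicate 2 was low. Its paralog HSP90AB1 (run of 12 nt) was at 2290 and 2160 CPM with the control ASO and 2400 and 2790 CPM with the anti-GAA ASO, and LRPPRC, PRKDC and DHX9, with the smallest p of the list, were at −0.26, −0.27 and −0.24.

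Around XRN1, 18 of 20 genes of decapping and 5′ to 3′ decay were tested, 0 passed in edgeR and 0 had an unadjusted p under 0.05, with a median of 0.12 and a range from −0.12 to 0.37. This median ran from 0.017 to 0.27 when 1 library was left out. LSM14B, a protein of processing bodies, was at 0.37, and LSM2, of the ring that binds deadenylated mRNA ends, at 0.31. The abundant LSM4 and LSM7 were at 0.14 and −0.11. DCP1A had no count and EDC4 at most 2 counts in a library under these identifiers, and neither was tested. Of 30 genes of the exosome, the Ski complex and deadenylation, all tested, 0 passed in edgeR and 1 was lower at an unadjusted p under 0.05, with a median of −0.006 that ran from −0.13 to 0.12 when 1 library was left out. The gene was SKIC2, the helicase of the Ski complex that feeds RNA to the cytoplasmic exosome, at 33.7 and 33.6 CPM with the control ASO and 23.1 and 18.6 CPM with the anti-GAA ASO (log2 fold change −0.69, SE 0.22, edgeR adjusted p = 0.987). When the replicate number was added as a block, SKIC2 was called lower (edgeR adjusted p = 0.0446). EXOSC3 and CNOT11 were at 0.42 and 0.40, without overlap, and EXOSC4 and SKIC8, the most abundant per length, at 0.13 and 0.057.

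Libraries of the groups did not overlap for 6 lower and 2 higher of the 17 tested genes of the hybrid list. The counts were 3 lower and 5 higher of the 16 paraspeckle genes, and 3 lower and 2 higher of the 26 ASO-binding proteins. For decapping and 5′ to 3′ decay the counts were 0 lower and 5 higher of 18, and for the exosome, the Ski complex and deadenylation 6 lower and 3 higher of 30. Over all tested genes these shares were 16.9% lower and 15.5% higher. The lists share genes: XRN2 stood on the hybrid and the decapping lists, and DHX9 on the hybrid and the ASO-binding lists. Both were without overlap of the groups and were counted on each of their lists.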

How the data were processed

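HCT116 RNA-seq of 4 libraries was analysed. The labels name a kit for total RNA and the methods one for stranded mRNA, so the RNA class captured is uncertain. The authors aligned trimmed reads to hg19 with STAR, dropped those on GL contigs and used featureCounts to assign reads to Ensembl genes. They deposited the resulting raw counts, and 0 columns with values per sample went unused. The annotation release, the strand setting and the handling of reads on several genes are not given in the sources used here. The main test was that of edgeR 4.0.16 in R 4.3.3 (filterByExpr, TMM, quasi-likelihood F-test with the ASO as the only term, Benjamini-Hochberg adjustment, threshold 0.05), and DESeq2 1.42.0, the tool of the authors, served as an alternative. The standard error is the log2 fold change over the root of F, and 95% intervals use the moderated degrees of freedom (6.87). For each pair, log2 CPM (prior count 2) of the control library was subtracted from that of the anti-GAA library. The fit was tested on simulated data, with a smaller spread between libraries than in these data and no replicate effect. That test therefore does not show which changes could be detected here. Symbols, positions and transcripts came from GENCODE 44 (GRCh38) by Ensembl identifier (52181 of 63677 matched), with no position carried over from hg19. The 8 genes and the lists were chosen with earlier results of these data known. Named are the 8 genes and, of each list, the 3 genes with the smallest p and the 2 most abundant per length, with the 3 most similar profiles for RNASEH1, NONO and XRN1. Genes left untested for lack of counts, and repeats in HSP90 genes, are mentioned outside this rule, with their values in view. Single genes of these lists that the rule names but the text does not are not reported here.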

Additional observations from a re-analysis of the deposited data

How the results depend on the processing

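Each of the 8 log2 fold changes was computed under 12 alternatives, among them no filter on low counts and a filter at a mean of 1 CPM, and none of the 96 values passed an adjusted p of 0.05 (smallest 0.0934, for RNASEH2A with the replicate block and offsets that remove trends on transcript length and GC content). XRN1 and PSPC1 stayed below 0 and RNASEH2A, RNASEH2C and NONO above 0 in all 12. RNASEH2B, near 0, was at −0.085 with library totals alone, −0.002 without a filter and −0.002 with the filter at 1 CPM, and SFPQ at −0.071 with library totals alone, which moved the median of all genes from 0.013 to −0.081. Leaving out 1 library gave ranges of −0.26 to 0.73 for RNASEH1, 0.30 to 0.57 for RNASEH2A, −0.16 to 0.20 for RNASEH2B, 0.15 to 0.42 for RNASEH2C, 0.11 to 0.32 for NONO, −0.054 to 0.10 for SFPQ, −0.37 to −0.24 for PSPC1 and −0.64 to −0.39 for XRN1. A condition left with 1 library was assumed to vary like the other.

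The replicate numbers are shared by the groups, and libraries of the same number deviated together (Pearson's r = 0.564 across genes, which are not independent replicates), but the labels do not say what the number marks. With the replicate block edgeR called 207 genes lower and 51 higher, and 0 of the 8. RNASEH2A then had an adjusted p of 0.134 and XRN1 one of 0.210 in edgeR. The block called 1 gene lower on the hybrid list and 1 on the exosome list, SKIC2 (adjusted p = 0.0446 from edgeR). With the block and the length and GC offsets 231 genes were lower and 130 higher, with 1 lower on the hybrid list, 1 lower on the exosome list and 1 paraspeckle gene higher, RBM14. DESeq2 called 3 genes lower, no filter gave 111 lower and 5 higher, and leaving out 1 library 0 to 16 lower and 0 to 3 higher.

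The median of the hybrid list was −0.074 in DESeq2, −0.078 with its size factors, −0.18 with library totals, −0.10 without a filter and −0.10 with the filter at 1 CPM, but 0.026 with the length and GC offsets and 0.025 with these and the block, and −0.11 to −0.063 without 1 library. The median of the exosome list was −0.10 with library totals and −0.13 to 0.12 without 1 library. Leaving out 1 library also moved the medians of the decapping list (0.017 to 0.27), the paraspeckle list (0.028 to 0.23) and the ASO-binding list (−0.062 to 0.13), in each case lowest without control library 2 and highest without control library 1, and library totals put them at 0.032, 0.047 and −0.044. With library totals alone the pairs gave −0.056 and −0.11 for RNASEH2B, 0.24 and 0.14 for RNASEH2C, −0.35 in replicates 2 for PSPC1 and −0.61 and −0.61 for XRN1. Per kb of the longest transcript, control levels were 65.1 for RNASEH2A, 13.5 for RNASEH2B, 18 for RNASEH2C, 14.2 for NONO, 106.0 for SFPQ, 12.3 for PSPC1 and 1.20 for XRN1. Over all annotated transcripts the longest GAA run was 8 nt in RNASEH2B and 9 nt in RNASEH2C. The cause of these shifts was not tested. XRN1 rests on 77 to 222 counts a library, the fewest of the 8.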
